A study of Mus musculus with 8 samples.

Results

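The 10 genes of the vascular endothelial growth factor (VEGF) system were followed in cultured mouse brain pericytes treated with TGF-β1. They are the 5 ligand genes *Vegfa*, *Vegfb*, *Vegfc*, *Vegfd* and *Pgf*, the 3 receptor tyrosine kinase genes *Flt1*, *Kdr* and *Flt4*, and the 2 neuropilin co-receptor genes *Nrp1* and *Nrp2*. They were chosen by gene symbol, and all 10 were found among the 54532 Ensembl gene identifiers counted. Bulk RNA-seq was performed on 8 primary cultures of wild-type (WT) mouse brain pericytes, of which 4 received TGF-β1 and 4 received vehicle. The paper's methods describe 4 independent isolates given vehicle and TGF-β1, but the labels do not say which cultures came from the same isolate. The dose is given as 5 μg per mL, and its unit could not be checked from the counts. All were collected after 48 h. The cells had been released from whole brain with papain and passaged in growth medium with serum, first an endothelial and then a pericyte medium, so a culture is an expanded population and not a sorted one. The comparison asks how this paracrine cytokine changes gene expression in pericytes.

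VEGF ligands are secreted dimers that act mainly on endothelial cells. *Vegfa* encodes the main angiogenic ligand, and its protein binds both FLT1 (VEGFR1) and KDR (VEGFR2). The products of *Vegfb* and *Pgf*, the latter called placental growth factor, bind FLT1. *Vegfc* and *Vegfd* encode the lymphangiogenic ligands, which are made as precursors, are cut outside the cell and bind FLT4 (VEGFR3). Mature VEGF-C also binds KDR, whereas mouse VEGF-D does not. Neuropilins have no kinase of their own, bind some VEGF forms together with these receptors, and also serve as receptors for class 3 semaphorins. In vessels, pericytes are a known source of VEGF for the endothelium beside them, and their own FLT1, including a soluble form, can bind the ligand.

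The libraries held from 45255235 to 47651397 counts, and 3 counts corresponded to between 0.0631 and 0.0658 CPM (counts normalised to library size after TMM correction). *Pdgfrb* and *Cspg4*, which mark pericytes, were at 202 ± 5.43 and 82.9 ± 2.50 CPM (SD, n = 4) with vehicle and rose to 291 ± 2.58 and 169 ± 5.62 CPM with TGF-β1. The 15 pericyte markers moved both ways, with 5 higher and 4 lower of 12 tested (75.0% called, where 41.3% of all genes tested and 60.9% of those of at least 10 CPM were called), and *Rgs5*, a further pericyte marker, fell from 8.62 ± 0.466 to 2.13 ± 0.245 CPM. Moreover, *Kcnj8*, *Abcc9* and *Vtn*, which are typical of brain capillary pericytes in tissue, were at 0 to 9 counts per culture. *Des* was at 25 to 36 counts. These genes are among 6 of the 15 pericyte markers with a mean under 1 CPM. In contrast, *Zic1*, *Foxf2*, *Notch3*, *Cd248* and *Anpep* of the same list were above 10 CPM in every culture, as were *Pdgfrb* and *Cspg4*. Of the 15 endothelial markers listed, 8 had a mean under 1 CPM. *Pecam1* was at 1.11 ± 0.376 CPM with vehicle and 1.11 ± 0.121 CPM with TGF-β1 (SD, n = 4), whereas *Cdh5*, the gene of VE-cadherin, was at 375 ± 6.23 and 367 ± 12.9 CPM. Without *Cdh5*, the summed level of the other 14 endothelial markers ranged from 18.6 to 23.0 CPM in the vehicle cultures and from 18.4 to 21.6 CPM in the TGF-β1 cultures. The marker genes named here outside *Pecam1* and *Cdh5* were picked after their values were seen.

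All 10 genes passed the filter on low expression. At a false discovery rate of 0.05 over the 22544 genes tested with edgeR, 6 of the 10 were higher with TGF-β1 and 1 was lower, while 3 were not called. Among all genes tested, 20.9% were called higher, 20.3% were called lower and 41.3% were called in either direction. Calls were more frequent at higher expression, with 60.9% of the 10195 genes of at least 10 CPM called (33.8% higher and 27.1% lower), a level that every member except *Flt4* reached. The 10 genes had a median log2 fold change of 0.29, against -0.01 over all genes tested. In bulk RNA, a change in the level per cell and a change in the share of expressing cells cannot be told apart.

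**Figure D1:**
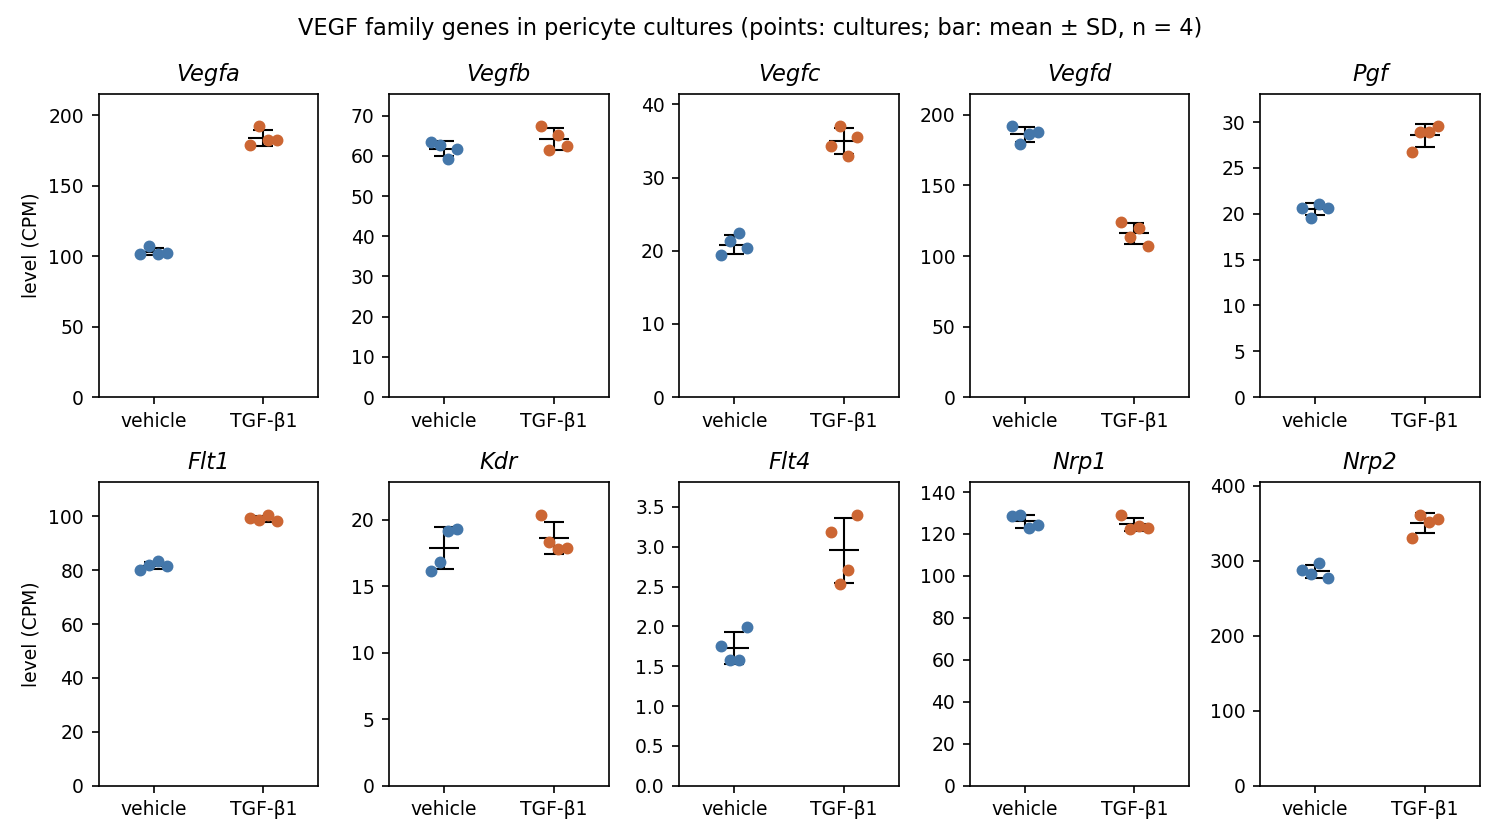
Level of each of the 10 genes in CPM (y axis, from 0) in the 4 vehicle and 4 TGF-β1 cultures, with points for cultures and bars for the mean ± SD. The TGF-β1 points lie above all vehicle points for Vegfa, Vegfc, Pgf, Flt1, Flt4 and Nrp2, below them for Vegfd, and overlap them for Vegfb, Kdr and Nrp1.

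The ligands moved apart. *Vegfa*, *Vegfc* and *Pgf* rose, *Vegfd* fell and *Vegfb* was not called. The upstream sequences of the 2 ligand genes that changed most upward and of the 1 that fell are shown with that of *Flt1*, the receptor gene whose product binds *Vegfa*, *Vegfb* and *Pgf* products. They come from RefSeq on GRCm38.p6, run 5′ to 3′ on the strand of the gene, and stop before the first transcribed base of both RefSeq and GENCODE. Capitals mark the GC box GGGCGG, the hypoxia response core ACGTG or GCGTG, the SMAD motif CAGACA and the TATAAA box, on either strand.
Vegfa (chr17:46032378-46032627, minus strand): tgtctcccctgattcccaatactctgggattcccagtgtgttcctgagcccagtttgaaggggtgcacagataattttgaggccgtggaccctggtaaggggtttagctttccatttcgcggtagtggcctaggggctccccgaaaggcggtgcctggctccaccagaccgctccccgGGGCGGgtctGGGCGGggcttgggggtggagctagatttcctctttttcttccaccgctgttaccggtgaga
Vegfc (chr8:54077282-54077531, plus strand): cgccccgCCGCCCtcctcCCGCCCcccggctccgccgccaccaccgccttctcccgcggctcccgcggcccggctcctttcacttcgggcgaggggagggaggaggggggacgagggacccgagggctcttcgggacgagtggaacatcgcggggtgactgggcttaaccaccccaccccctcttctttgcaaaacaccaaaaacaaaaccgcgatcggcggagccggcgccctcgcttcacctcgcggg
Vegfd (chrX:164373272-164373377, plus strand): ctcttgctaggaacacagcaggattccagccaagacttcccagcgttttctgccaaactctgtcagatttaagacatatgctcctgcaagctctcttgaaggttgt
Flt1 (chr5:147726012-147726261, minus strand): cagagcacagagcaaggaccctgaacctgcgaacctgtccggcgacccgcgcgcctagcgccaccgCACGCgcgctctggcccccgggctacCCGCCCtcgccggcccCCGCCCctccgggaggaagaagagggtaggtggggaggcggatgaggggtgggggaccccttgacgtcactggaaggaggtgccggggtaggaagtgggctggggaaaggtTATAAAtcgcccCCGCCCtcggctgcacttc
In these stretches *Vegfa* and *Vegfc* each held 2 GC boxes and none of the other letters searched. The 106 bases shown for *Vegfd* held none of them. *Flt1* held 3 GC boxes, 1 hypoxia core and 1 TATAAA box. Over the full RefSeq windows (250 bases before to 50 after a start, 12 windows for the 10 genes), GGGCGG was in at least 1 window of 9 members, all but *Vegfd*, and in 35.7% of all 32851 windows. CAGACA was in a window of *Vegfa*, *Vegfd* and *Nrp1* and in 21.0% of all windows. GCGTG was in a window of 7 members and in 32.4% of all windows. ACGTG was in a window of *Vegfa* alone and in 19.6% of all windows, and TATAAA in a window of *Vegfd* and *Flt1* and in 13.6% of all. The longer SMAD palindrome GTCTAGAC was in none of the 12. These matches describe the letters only.

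*Vegfa* (ENSMUSG00000023951, chromosome 17, 46016993 to 46032369 of GRCm38, minus strand) was at 102, 107, 102 and 102 CPM in vehicle cultures 1 to 4 and at 179, 192, 182 and 183 CPM in TGF-β1 cultures 5 to 8. The groups were far apart, and the cultures within each group were close. The means were 103 ± 2.65 and 184 ± 5.72 CPM (SD, n = 4), a 1.78-fold rise. On the log2 scale the rise was 0.83 with an SE of 0.03 (edgeR, adjusted p = 7.64e-28). Of the genes called, 778 had a larger rise. Counts per gene do not separate its splice forms, which differ in how strongly they bind heparan sulfate and neuropilins.

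*Vegfc* (ENSMUSG00000031520, chromosome 8, 54077606 to 54187096, plus strand) was at 19.4, 21.3, 22.4 and 20.4 CPM with vehicle and at 34.4, 37.0, 33.0 and 35.6 CPM with TGF-β1. Every treated culture exceeded every vehicle culture. The mean went from 20.9 ± 1.27 to 34.99 ± 1.74 CPM (SD, n = 4), or 0.75 on the log2 scale with an SE of 0.05 (edgeR, adjusted p = 1.53e-17). *Vegfd* (ENSMUSG00000031380, chromosome X, 164373378 to 164402650, plus strand), whose product is the closest relative of VEGF-C, moved the other way. Its level was 192, 179, 186 and 188 CPM with vehicle and 124, 114, 120 and 107 CPM with TGF-β1, again without overlap. The mean fell from 186 ± 5.35 to 116 ± 7.34 CPM (SD, n = 4), a log2 fold change of -0.68 with an SE of 0.03 (edgeR, adjusted p = 3.56e-15). Thus the lymphangiogenic ligand pair changed in opposite directions.

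*Pgf* (ENSMUSG00000004791, chromosome 12, 85166635 to 85177790, minus strand) was at 20.7, 19.6, 21.1 and 20.7 CPM with vehicle and at 26.8, 28.9, 28.9 and 29.6 CPM with TGF-β1. The groups did not overlap. The mean went from 20.5 ± 0.649 to 28.5 ± 1.21 CPM (SD, n = 4), or 0.48 on the log2 scale with an SE of 0.05 (edgeR, adjusted p = 1.33e-11). The 95% interval of this rise, 0.38 to 0.57, lay below those of *Vegfa*, 0.78 to 0.89, and *Vegfc*, 0.65 to 0.84. *Vegfb* (ENSMUSG00000024962, chromosome 19, 6982473 to 6987651, minus strand) was at 63.5, 62.6, 59.2 and 61.7 CPM with vehicle and at 67.4, 61.4, 65.1 and 62.5 CPM with TGF-β1. These ranges overlapped. Its log2 fold change was 0.05, with a 95% interval from -0.01 to 0.12 (adjusted p = 0.215, edgeR).

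Among the receptors, *Flt1* and *Flt4* rose and *Kdr* was not called. *Flt1* (ENSMUSG00000029648, chromosome 5, 147561604 to 147726011, minus strand) was at 80.0, 81.9, 83.3 and 81.6 CPM with vehicle and at 99.3, 98.5, 100.7 and 98.2 CPM with TGF-β1. The spread within each group was small beside the gap between them. The mean went from 81.7 ± 1.32 to 99.2 ± 1.11 CPM (SD, n = 4), or 0.28 on the log2 scale with an SE of 0.03 (edgeR, adjusted p = 1.16e-11). The counts do not tell the membrane form of FLT1 from its soluble form.

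*Kdr* (ENSMUSG00000062960, chromosome 5, 75932827 to 75978458, minus strand), the gene of the main signalling receptor for VEGF-A, was at 16.2, 16.9, 19.2 and 19.3 CPM with vehicle and at 20.4, 18.3, 17.8 and 17.9 CPM with TGF-β1. Of the treated cultures 3 lay within the vehicle range, and culture 5 was the highest of all. Its log2 fold change was 0.06, with a 95% interval from -0.06 to 0.18 (adjusted p = 0.478, edgeR). A rise of up to 0.18 on the log2 scale thus lies within the error. With 1 culture left out, the *Kdr* value ranged from 0.01 to 0.10. *Flt4* (ENSMUSG00000020357, chromosome 11, 49609263 to 49652739, plus strand) was the least expressed member, with 81, 72, 75 and 92 counts in the vehicle cultures and 146, 116, 124 and 160 counts in the TGF-β1 cultures. Despite the low counts the groups did not overlap. Its mean went from 1.73 ± 0.196 to 2.96 ± 0.409 CPM (SD, n = 4), and its log2 fold change of 0.78 had the widest error of the 10 genes (SE 0.14, edgeR, adjusted p = 1.66e-05).

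The receptor genes are best known from endothelium, so endothelial markers were read beside them. Of 15, 9 were tested, with 2 called higher and 3 called lower, a share of 55.6% against 41.3% of all genes tested. Only *Cdh5* of those tested reached 10 CPM. The 60.9% called among genes of at least 10 CPM is therefore not a like background for the other markers, as calls were less frequent at lower expression. *Vwf*, at 1.58 ± 0.429 CPM with vehicle and 3.81 ± 0.679 CPM with TGF-β1 (SD, n = 4), and *Robo4*, at 0.134 ± 0.0592 and 0.525 ± 0.108 CPM, were those called higher. *Tek*, at 2.71 ± 0.575 and 1.99 ± 0.164 CPM, *Mmrn2*, at 5.92 ± 0.477 and 4.66 ± 0.337 CPM, and *Ocln*, at 1.31 ± 0.176 and 0.454 ± 0.149 CPM, were called lower. *Tie1*, *Cldn5* and *Erg* were at 0 to 10 counts in each culture. Of the lymphatic endothelial markers, where *Flt4* is itself listed, *Ccl21a* was at 0 in every culture. *Prox1* had 6 to 31 counts and *Lyve1* had 13 to 46 counts, and neither was called. *Prox1* was at 0.258 ± 0.0918 and 0.399 ± 0.184 CPM (SD, n = 4), *Lyve1* was at 0.811 ± 0.150 and 0.584 ± 0.204 CPM, and *Mmrn1* had 2 to 8 counts. The summed lymphatic list ranged from 2.69 to 3.25 CPM with vehicle and from 3.72 to 4.96 CPM with TGF-β1. It includes *Flt4* itself, at means of 1.73 and 2.96 CPM, so its rise is not separate from that of *Flt4*. The part of endothelial RNA in the *Flt4* and *Flt1* changes was not tested. Of 13 macrophage and microglia markers, 8 were tested and 1 was called (12.5%), *Csf1r*, which rose from 1.504 ± 0.380 to 2.50 ± 0.258 CPM (SD, n = 4). *Tmem119* was at 102 ± 2.23 and 98.5 ± 1.21 CPM and *Cd68* at 5.10 ± 0.421 and 5.92 ± 0.537 CPM, and *Ptprc* and *Cx3cr1* were detected in every culture, at 23 to 61 counts. *C1qa*, *C1qb*, *C1qc* and *Tyrobp* were at 3 counts or fewer in every culture. Without *Tmem119*, the list summed to between 8.61 and 9.32 CPM with vehicle and between 9.94 and 11.7 CPM with TGF-β1. The summed fibroblast markers ranged from 4571 to 4739 CPM with vehicle and from 5799 to 6069 CPM with TGF-β1. Of 8 tested, *Col1a1* and *Col1a2* were higher and 4 were lower, among them *Fbln1*, from 446 ± 7.58 to 196 ± 12.2 CPM, and *Cxcl12*, from 312 ± 2.82 to 209.6 ± 9.41 CPM. The summed astrocyte markers ranged from 55.5 to 62.6 CPM with vehicle and from 40.8 to 45.7 CPM with TGF-β1, with 2 higher and 3 lower of 6 tested. The shares called were 75.0% of the fibroblast and 83.3% of the astrocyte markers tested, to be read against 41.3% of all genes tested and 60.9% of those of at least 10 CPM. *Slc1a2* fell from 38.5 ± 2.88 to 16.3 ± 0.996 CPM, and *Aldh1l1* rose from 5.16 ± 0.422 to 8.79 ± 0.305 CPM. The 7 smooth muscle markers summed to between 841 and 916 CPM with vehicle and between 784 and 819 CPM with TGF-β1, with 1 higher and 2 lower of 6 tested. Those called lower were *Smtn*, from 125 ± 3.17 to 61.6 ± 2.97 CPM, and *Lmod1*, which fell by 0.65 on the log2 scale. The gene called higher was *Cnn1*, from 1.90 ± 0.267 to 2.44 ± 0.331 CPM. *Acta2*, at 731 ± 30.1 and 715 ± 17.2 CPM, was not called (adjusted p = 0.339, edgeR). Of the smooth muscle markers 3 of 6 tested were called, and of the oligodendrocyte markers 2 of 4. Both shares lay between the 41.3% of all genes tested and the 60.9% of those of at least 10 CPM. The 6 oligodendrocyte markers summed to between 4.12 and 5.52 CPM and between 5.38 and 6.11 CPM, with 1 higher and 1 lower of 4 tested. These markers were picked after their values were seen, and the part of any of these cells in the results was not tested.

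The co-receptors differed. *Nrp2* (ENSMUSG00000025969, chromosome 1, 62703285 to 62818695, plus strand), whose product binds VEGF-C and semaphorin 3F, was at 287, 282, 297 and 277 CPM with vehicle and at 331, 362, 352 and 356 CPM with TGF-β1. Culture 5 was the lowest of the treated cultures and still above the vehicle range. The mean went from 286 ± 8.44 to 350.1 ± 13.5 CPM (SD, n = 4), or 0.29 on the log2 scale with an SE of 0.03 (edgeR, adjusted p = 8.50e-13). *Nrp1* (ENSMUSG00000025810, chromosome 8, 128358604 to 128503363, plus strand), whose product binds VEGF-A and semaphorin 3A, was at 128, 129, 123 and 124 CPM with vehicle and at 129, 122, 124 and 123 CPM with TGF-β1. The groups overlapped, and the log2 fold change of -0.02 had a 95% interval from -0.07 to 0.04 (adjusted p = 0.632, edgeR).

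**Figure D2:**
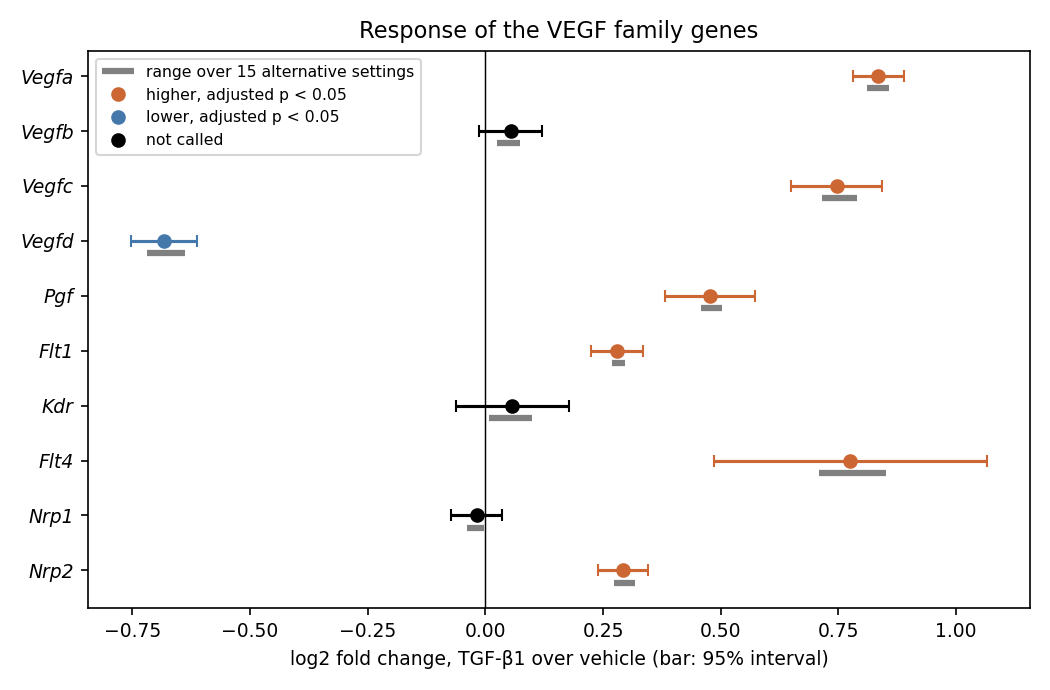
Log2 fold change of each gene, TGF-β1 over vehicle (x axis), with its 95% interval from the edgeR fit and, in grey, its range over the 15 alternative settings. Vegfa (0.83), Flt4 (0.78) and Vegfc (0.75) lie farthest to the right, Vegfd (-0.68) lies alone on the left, and the intervals of Vegfb, Kdr and Nrp1 cross 0.

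Each of the 7 called genes had groups that did not overlap, as did 37.9% of all genes tested, and gave p = 0.0286 in an exact two-sided permutation test of its CPM, the lowest value this number of cultures can give. The same exact test gave p = 0.257 for *Vegfb*, p = 0.486 for *Kdr* and p = 0.429 for *Nrp1*. The labels name neither the animals behind the cultures nor any isolate shared between the groups. The tests were therefore unpaired, and p-values measure only the spread between these cultures.

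Ratios within a culture do not depend on the library scaling. The log2 ratio of *Nrp1* to *Nrp2* counts was between -1.27 and -1.13 in the vehicle cultures and between -1.56 and -1.36 in the TGF-β1 cultures, without overlap. The log2 ratio of *Vegfa* to *Vegfb* went from 0.74 ± 0.05 to 1.52 ± 0.10 (SD, n = 4), and that of *Vegfa* to *Flt1* from 0.34 ± 0.04 to 0.89 ± 0.05, again with separate groups. In every treated culture *Vegfa* thus exceeded *Flt1* by more than in any vehicle culture. In contrast, *Vegfa* to *Vegfc* overlapped between the groups, at 2.31 ± 0.09 and 2.40 ± 0.05. *Flt1* to *Kdr* overlapped too, at 2.20 ± 0.11 and 2.42 ± 0.09. These ratios are given without a test.

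**Figure D3:**
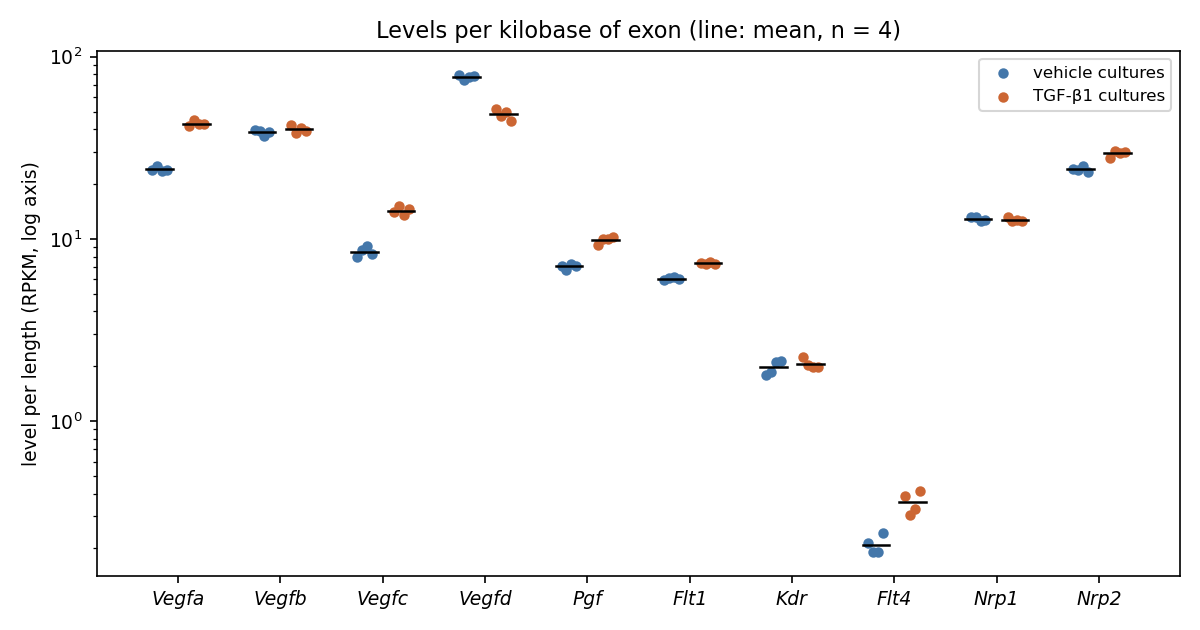
Level per kilobase of exon (RPKM, logarithmic y axis) of each gene in the 4 vehicle and 4 TGF-β1 cultures, with a line at each mean. Vegfd stands highest with vehicle, at 77.4 RPKM, while with TGF-β1 the points of Vegfd, Vegfa and Vegfb come close to each other, and Flt4 stands lowest in both groups.

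Levels of different genes were compared per length, as RPKM over the union of annotated exons. With vehicle, *Vegfd* was the most abundant ligand transcript at 77.4 ± 2.22 RPKM (SD, n = 4), followed by *Vegfb* at 38.5 ± 1.148 and *Vegfa* at 24.1 ± 0.619 RPKM. *Vegfc* and *Pgf* were lower, at 8.51 ± 0.519 and 7.07 ± 0.224 RPKM. With TGF-β1, *Vegfd* was at 48.2 ± 3.05, *Vegfa* at 43.0 ± 1.33 and *Vegfb* at 39.9 ± 1.69 RPKM, and the culture ranges of neighbours in this order overlapped. *Vegfc* was then at 14.3 ± 0.711 RPKM and *Nrp1* at 12.7 ± 0.322 RPKM. Thus the culture range of *Vegfd* stood apart from the other ligands with vehicle and overlapped that of *Vegfa* with TGF-β1. Within each treated culture, *Vegfd* was still above *Vegfa* on this length. *Nrp2* was above *Nrp1* in both groups, at 24.1 ± 0.713 against 12.9 ± 0.320 RPKM with vehicle. The order of the receptors was *Flt1*, *Kdr* and *Flt4* in both groups, at 6.05, 1.98 and 0.210 RPKM with vehicle and 7.34, 2.06 and 0.359 RPKM with TGF-β1, with no overlap of their ranges. The union of exons counts all annotated forms, and with the longest transcript in its place *Nrp1* stood above *Vegfa* with vehicle and far above *Vegfc* in both groups, at 34.6 against 8.51 RPKM with vehicle and 34.2 against 14.3 RPKM with TGF-β1.

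Companion genes were read from lists chosen for function. Of the 13 neuropilin partners (class 3 semaphorins, A- and D-type plexins and the adaptor *Gipc1*), 6 were higher and 6 were lower in the edgeR test. Their median log2 fold change was 0.10, and 92.3% were called. Among all genes tested 41.3% were called, and among those of at least 10 CPM 60.9%. The semaphorin genes that fell included *Sema3a*, the repulsive ligand of NRP1, from 68.5 ± 2.48 to 35.1 ± 0.858 CPM (SD, n = 4), and *Sema3e*, whose product binds plexin D1 directly, from 26.1 ± 0.436 to 12.7 ± 0.770 CPM. *Plxna4* fell from 13.6 ± 1.10 to 5.62 ± 0.379 CPM and *Plxna2* from 449 ± 17.2 to 260.5 ± 13.98 CPM. These are co-receptors that carry the signal of neuropilin-bound semaphorins. *Plxnd1*, known from vascular patterning, rose from 64.2 ± 2.84 to 82.1 ± 1.77 CPM. *Sema3f*, at 15.8 ± 0.708 and 18.5 ± 1.10 CPM, *Sema3d*, *Plxna1* and *Plxna3* were also called higher, so semaphorin and plexin genes moved in both directions. These 4 were named after their values were seen.

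Of the 22 tested genes of 23 listed under VEGF capture and processing, 13 were higher and 7 were lower. Their median log2 fold change was 0.25. The share called was 90.9%, against 41.3% of all genes tested and 60.9% of those of at least 10 CPM. The largest change in any companion list was that of *Ccbe1*, a secreted cofactor for the cleavage of pro-VEGF-C, which went from 10.4 ± 0.477 to 72.4 ± 4.16 CPM (SD, n = 4). This was a rise of 2.80 on the log2 scale with an SE of 0.05 (edgeR, adjusted p = 1.87e-38). *Adamts3*, which encodes the protease that acts with CCBE1, had 2 to 19 counts per culture and was not tested. Of the same list, *Adamts2* was called lower, from 149 ± 3.78 to 103 ± 4.63 CPM, as was *Adamts14*, from 46.1 ± 0.727 to 32.7 ± 2.17 CPM. These *Adamts* genes were named after their values were seen. *Thbs1* and *Thbs2*, genes of antiangiogenic thrombospondins, rose from 303 ± 15.9 to 664 ± 14.8 CPM and from 399.7 ± 17.6 to 982 ± 21.1 CPM. *Igfbp3*, the gene of an insulin-like growth factor binding protein that was also listed here, rose from 5.01 ± 0.653 to 14.3 ± 1.30 CPM.

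**Figure D4:**
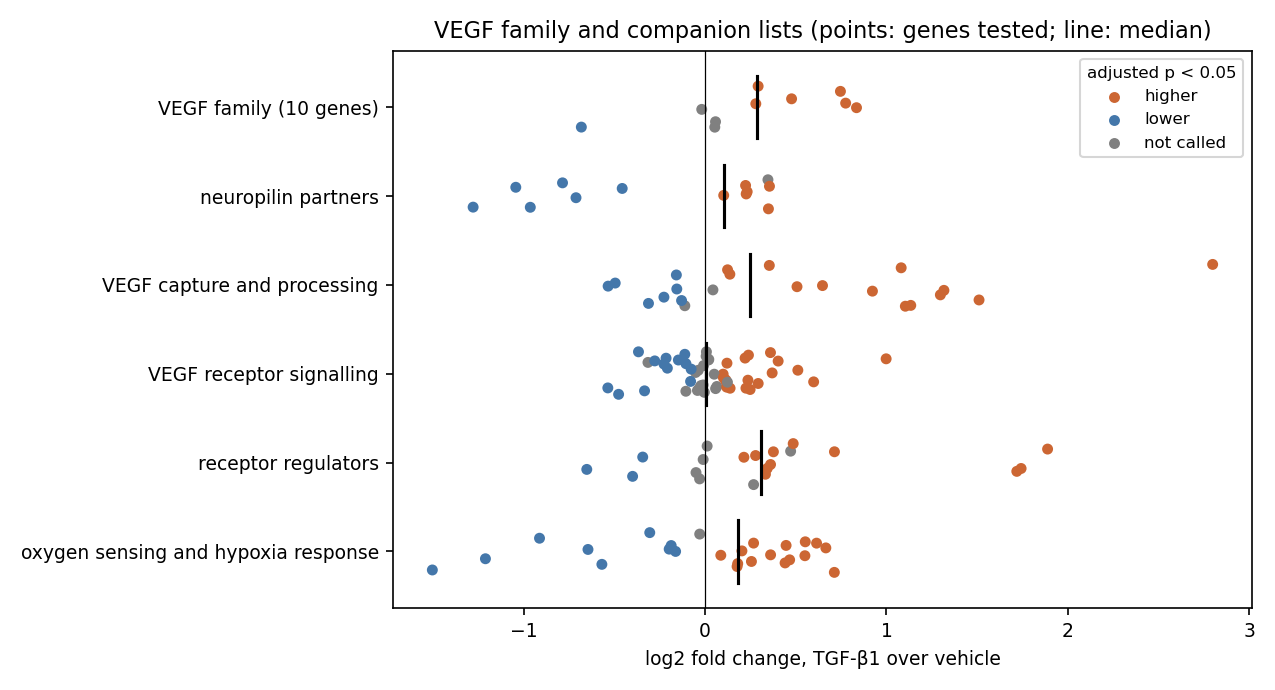
Log2 fold change, TGF-β1 over vehicle (x axis), of each tested gene of the VEGF family and of 5 companion lists, coloured by call, with a line at each median. Ccbe1 is the point at 2.80 in the capture and processing list, and the receptor signalling list is centred near 0 with a median of 0.01.

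Regulators of the receptors had 11 genes higher and 3 lower of 20 tested (median log2 fold change 0.31). Thus 14 of 20 were called and 6 were not. This share is to be read against 41.3% of all genes tested and 60.9% of those of at least 10 CPM. *Itgb3*, the β3 integrin subunit that pairs with αv, rose from 3.59 ± 0.157 to 13.3 ± 1.65 CPM (SD, n = 4). *Ptprb*, known as the phosphatase VE-PTP, rose from 2.27 ± 0.279 to 7.62 ± 0.883 CPM. *Gpc1*, a heparan sulfate proteoglycan, rose from 92.6 ± 4.68 to 305 ± 15.3 CPM, and *Vash2*, of the vasohibin family, from 36.0 ± 0.409 to 59.1 ± 2.76 CPM. *Cdh5*, whose product partners with KDR in endothelium, was not called (adjusted p = 0.342, edgeR).

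Genes for the signalling proteins downstream of the receptors moved in both directions. Of 52, 19 were higher, 13 were lower and 20 were not called, with a median log2 fold change of 0.01. The share called, 61.5%, was close to the 60.9% of all genes of at least 10 CPM. *Ptgs2*, which encodes cyclooxygenase-2, changed most, from 99.4 ± 3.86 to 199 ± 10.03 CPM (SD, n = 4). *Prkcb* rose by 0.60 and *Nfatc4* by 0.51, while *Prkca* fell by 0.54 on the log2 scale. *Nos3*, the endothelial nitric oxide synthase gene, was at 0.217 ± 0.0787 and 0.173 ± 0.112 CPM and was not called (adjusted p = 0.643, edgeR).

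*Vegfa* is a classic target of hypoxia-inducible factors, so genes of oxygen sensing and of the hypoxia response were included. Of 25, 15 were higher and 9 were lower (median log2 fold change 0.18). *Hif1a* rose from 227 ± 7.76 to 359.9 ± 3.75 CPM (SD, n = 4), while *Epas1*, which encodes HIF-2α, fell from 65.8 ± 0.884 to 28.4 ± 2.09 CPM. The hypoxia-responsive genes went both ways. *Bnip3* rose from 37.3 ± 0.906 to 61.2 ± 2.15 CPM, whereas *Ndrg1* fell from 136 ± 1.53 to 47.8 ± 3.28 CPM and *Adm*, the gene of adrenomedullin, fell from 34.8 ± 1.36 to 18.5 ± 1.40 CPM. *Slc2a1*, a glucose transporter gene, rose by 0.55 on the log2 scale, and the glycolytic genes *Pgk1* and *Ldha* rose by 0.61 and 0.27. *Pdk1*, *P4ha1*, *Bnip3l* and *Kdm3a* were called higher too, while *Car9* and *Ddit4* were called lower. The genes from *Slc2a1* on were named after their values were seen. Members of all 5 lists were called at shares to be read against the 60.9% of genes of at least 10 CPM, from 61.5% in receptor signalling to 96.0% in the oxygen list.

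Genes with the most similar profile over the 8 cultures were sought among 10194 others of at least 10 CPM, by the Pearson correlation of log2 CPM, as a description. For *Vegfd* these were *Dbnl* (r = 0.999), *Pdzrn3* (0.998) and *Grk3* (0.998). For *Flt1* they were *Kcnn4* (0.999), *Fam214b* (0.998) and *Rab15* (0.997). For *Nrp2* they were *Ankib1* (0.996), *Tmem200a* (0.995) and *Wdr91* (0.995). The 8 points fall in 2 groups and share their libraries, and 212 genes exceeded 0.99 with *Vegfd*, against 157 with *Flt1* and 13 with *Nrp2*.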

How the data were processed

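RNA from 8 pericyte cultures was sequenced as stranded total RNA libraries. Per the paper's methods and the submitters' processing notes, the authors aligned reads to mm10 with STAR 2.7.5c in 2-pass mode, removed duplicates with SAMtools 1.15 and deposited raw read counts per gene from featureCounts 2.0.3. The strand setting and the annotation release are not given in the sources used here. Identifiers were matched to GENCODE M21 (GRCm38), with a symbol for 54409 of 54532. No exon of the 10 genes overlapped another gene on the opposite strand, and at most 0.818% of exon bases (*Nrp1*) did so on the same strand.

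Counts were tested with edgeR 4.0.16 in R 4.3.3 (filterByExpr, TMM, robust quasi-likelihood test, two-sided, Benjamini-Hochberg over 22544 genes, threshold 0.05). The standard error was the log2 fold change divided by the square root of F. RPKM was CPM per kilobase of exon. The code was tested on simulated data. DESeq2 1.42.0, other scalings and filters, halved counts (low counts were mostly even, 68.5% to 70.2% of those from 1 to 20) and each culture left out were alternatives. Each culture counted as 1 replicate, as labelled. Within groups, pairs of cultures gave a chi-square of 2.25 to 3.93 per degree of freedom. If counts are largely doubled, counting noise alone would give about 2, so these values do not show that the cultures were independent. Beyond the 10 members, up to 4 genes per companion list were named, those with the largest change among called genes of at least 1 CPM, with 7 genes set by name, of which 2 (*Epas1* and *Sema3a*) were also among those. Further list and marker genes were named after their values were seen, as the text says beside them. Members and lists were chosen with earlier results of these data known. Proteins and other experiments of the study were not used here.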

Additional observations from a re-analysis of the deposited data

Results flagged for a closer look

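In 86 groups of 4 values (the named genes, the ratios and the library totals), 2 held a single value distant from its group, and at about 1 in 20 chance would give 4.3. *Vegfa* was at 107.2 CPM in vehicle replicate 2 against 102.2 CPM in the nearest culture, a gap far smaller than the difference between the groups. For *Igfbp3*, TGF-β1 replicate 5 had 12.4 CPM and the nearest culture had 14.8 CPM. The cause was not tested.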

How the results depend on the processing

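Under the 15 alternatives (DESeq2, 3 scalings, 2 filters, halved counts and each culture left out in turn), all 10 members kept their direction and their side of the threshold of 0.05 on the adjusted p, with 6 called higher and 1 called lower in each. The log2 fold change ranged from 0.81 to 0.86 for *Vegfa*, from 0.72 to 0.79 for *Vegfc*, from -0.72 to -0.64 for *Vegfd*, from 0.46 to 0.50 for *Pgf*, from 0.27 to 0.30 for *Flt1*, from 0.71 to 0.85 for *Flt4* and from 0.27 to 0.32 for *Nrp2*. For the genes not called, it ranged from 0.01 to 0.10 for *Kdr*, from 0.03 to 0.07 for *Vegfb* and from -0.04 to -0.003 for *Nrp1*. *Pecam1*, not called in any fit, changed sign with DESeq2 (0.0036) and with DESeq2 size factors in edgeR (0.0025). It ranged from -0.14 to 0.25 with 1 culture left out. The counts of called genes, over all genes and per companion list, stayed within 1.5 times. No paired analysis was possible because the labels number the vehicle cultures 1 to 4 and the TGF-β1 cultures 5 to 8, so the groups share no number, although the paper's methods describe isolates given both treatments. Low counts widen the error of *Flt4*, and *Nos3* passed neither the filter of 10 counts in every culture nor the filter on halved counts, so those settings gave it no value.

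Levels per length moved with the length of the longest transcript in place of the union of exons, by construction. They became 29.9 and 53.4 RPKM for *Vegfa* (vehicle and TGF-β1), 48.2 and 50.05 for *Vegfb*, 90.9 and 56.7 for *Vegfd*, 9.86 and 13.7 for *Pgf*, 11.8 and 14.4 for *Flt1*, 3.02 and 3.14 for *Kdr*, 0.276 and 0.473 for *Flt4*, 34.6 and 34.2 for *Nrp1* and 42.5 and 52.1 for *Nrp2*, in RPKM. *Vegfc* has the same length in both.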

Other observations

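A further pair of ratios was computed after the values of the ligands had been seen. The log2 ratio of *Vegfa* to *Vegfd* counts within a culture was between -0.91 and -0.74 with vehicle and between 0.53 and 0.77 with TGF-β1, a difference in means of 1.52. The log2 ratio of *Vegfc* to *Vegfd* was between -3.31 and -3.06 with vehicle and between -1.86 and -1.59 with TGF-β1, a difference of 1.43. These ratios set counts of genes of unequal length against each other, so only their change between the groups can be read. Per kilobase over the union of exons, *Vegfd* was above *Vegfa* in each of the 8 cultures, and over the longest transcript in all but TGF-β1 cultures 6 and 8.

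Sequence shared with other genes was small for the members. Of their 50-base words, at most 0.619% (*Nrp2*) occurred in annotated transcripts of another gene, and none did for *Vegfb*, *Vegfc*, *Vegfd*, *Pgf* and *Kdr*.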
